A study of Mus musculus with 6 samples.

Results

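The integrin and laminin subunits are the receptor and ligand chains that attach cells to basement membranes and to other matrix, and their transcripts were described here in healing bone of mice lacking Cyp24a1, whose product inactivates the hormone form of vitamin D. Members were all genes whose symbol is Itga or Itgb with a digit or letter suffix, or Lama, Lamb or Lamc with a digit, on a probe set with a single gene symbol. There were 35 of them among 18193 genes, 25 integrin subunits (16 alpha and 9 beta) and 10 laminin chains, read by 76 probe sets. One probe set stood for each gene, the one whose mean was highest. Itga11, Itgad and Lamb4 were not analysed here.

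An integrin is a pair of one alpha and one beta subunit that spans the membrane. Outside the cell it binds matrix proteins or receptors of other cells, and inside it is tied to actin through talin, kindlin and filamin. A laminin is a cross-shaped trimer of an alpha, a beta and a gamma chain, and laminins form the sheet of basement membranes around vessels, muscle fibres, nerves, fat cells and epithelia. In bone repair, integrins are known for attaching osteoblasts and cartilage cells to collagen and fibronectin, for the grip of osteoclasts on mineral, for platelet aggregation in the clot and for the movement of leukocytes into the tissue.

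The tissue was callus taken at day 14 after a tibial osteotomy stabilised with an intramedullary rod, from mice aged 12 weeks on a C57BL6J x 129SV mixed background. The groups were Cyp24a1 (-/-) callus, called null, and Cyp24a1 (+/-) callus from littermates, called heterozygous, with 3 arrays each. The heterozygous mice still carry a disrupted copy, so no group here has the gene intact on both chromosomes. Nothing in the labels ties each array to a mouse of its own. Any p-value therefore reflects the scatter among these samples alone, which may be partly technical. Biotin-labelled total RNA was hybridised to Affymetrix GeneChip mouse arrays, and the deposited values were read as log2, so that a difference of 1 is a doubling. A level is comparable between arrays for the same probe set, not between probe sets.

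Array medians lay between 4.55 and 4.59. Bone and cartilage genes were present on every array, with Col1a1 between 13.57 and 14.28 and Col2a1 between 7.04 and 9.76, and of the 8 cartilage markers Matn1 and Hapln1 were at or under the level of silent transcripts on all arrays. Null replicate 1 and heterozygous replicate 3 were low in marrow genes, and skeletal muscle RNA was abundant, with values up to 14.49. The neutrophil markers, each centred on its own 6-array mean and then averaged, stood at -3.09, 2.003 and 1.45 in null callus, against 1.64, 1.58 and -3.59 in heterozygous callus. The erythroid markers stood at -2.84, 1.62 and 0.72 in null callus, against 1.33, 1.46 and -2.29 in heterozygous callus. In bulk tissue, fewer cells of a type and less RNA per cell cannot be told apart. Sex-linked transcripts that were silent on an array reached up to 3.52 there, which serves as a guide to background. Xist was high on null replicate 1 and heterozygous replicate 1, so each group held 1 array of that kind. The arrays of a group thus did not all come from the same mouse.

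None of the 35 genes reached the 0.05 level of limma's adjusted p. Every member had an adjusted p of 0.999, 0% of the 45037 probe sets passed, and the lowest adjusted p of any probe set was 0.775. Before adjustment, 3 of the 35 members had p under 0.05, which is 8.57%, against 4.49% of all genes and 3.69% of all probe sets. Itga6, a laminin receptor subunit, and Itgb2, the beta subunit of leukocyte integrins, had higher values in null callus, where 2.06% of all genes reached that p. Itga2, a collagen receptor subunit, had lower values, where 2.43% did. A plain equal-variance test per probe set also passed 0 members and left only Itga6 at an unadjusted p under 0.05. The groups did not overlap in the same 3 genes, 8.57% of the members against 10.1% of all genes, of which 4.14% lay higher in null callus and 5.99% lower. Differences, always null minus heterozygous, ran from -0.31 for Itga2 to 0.80 for Itgam, and 24 of the 35 were above 0, against 49.7% of all genes. The median difference was 0.18 for the integrins and 0.19 for the laminins, and -0.0017 for all genes. The integrin median was 0.053 without null replicate 2, and the laminin median 0.063 without null replicate 1. The number of members with an unadjusted p under 0.05 was 1 without null replicate 3, 2 without heterozygous replicate 1 or 2, 5 without heterozygous replicate 3 and 6 without null replicate 1. The share of all genes at that p moved too, to 2.81% without null replicate 3, 2.94% and 3.01% without heterozygous replicates 1 and 2, 7.77% without heterozygous replicate 3 and 6.28% without null replicate 1.

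**Figure D1:**
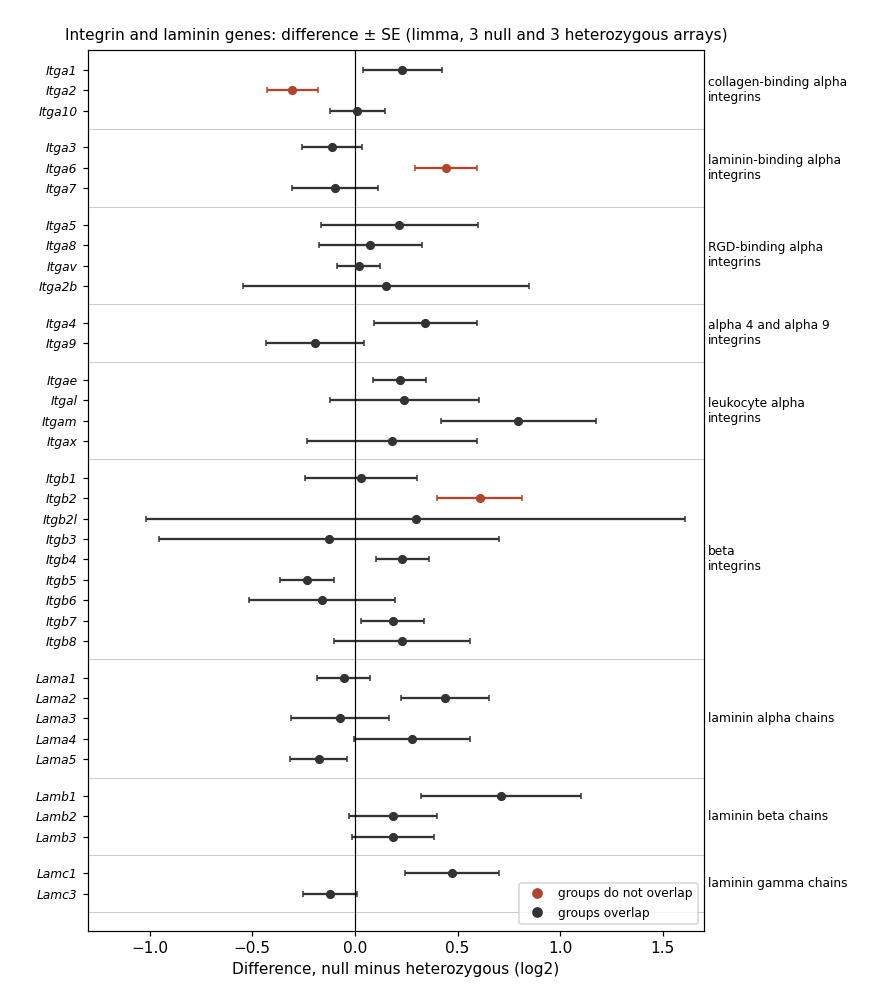
Difference between null and heterozygous callus (horizontal axis, null minus heterozygous, log2) for the 35 genes by role, as points with bars of 1 SE from limma over 3 null and 3 heterozygous arrays. The 3 genes without overlap of the groups, Itga6, Itgb2 and Itga2, are marked by colour, and the bars of Itgb2l, Itgb3 and Itga2b are the widest.

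Collagen-binding alpha subunits pair with Itgb1 and recognise collagens of bone, tendon and cartilage. Itga2, a receptor of fibrillar collagen on platelets and epithelial cells, was at 3.70, 3.60 and 3.48 in null callus, against 4.08, 3.80 and 3.82 in heterozygous callus. All null values lay under all heterozygous values, by a small margin and close to background, since 1 null value was not above 3.52. Its means were 3.59 ± 0.11 in null and 3.90 ± 0.16 in heterozygous callus (SD, n = 3 each), a difference of -0.31 (SE 0.12, unadjusted p = 0.0466, limma). The exact permutation test, two-sided, gave 0.1, the smallest p that 3 against 3 arrays allow. Itga1, a receptor that favours basement membrane collagen, was at 5.71, 5.57 and 5.62 in null callus, against 5.40, 5.04 and 5.77 in heterozygous callus. The highest value was heterozygous, so the groups overlapped, and the difference of 0.23 (SE 0.19) was not shared by its other probe set. Itga10, the collagen receptor of cartilage cells, averaged 5.60 ± 0.17 in null and 5.59 ± 0.14 in heterozygous callus, a difference of 0.01 with a 95% interval from -0.31 to 0.33.

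Laminin-binding alpha subunits are the cell's main integrin grip on basement membranes. Itga6, which pairs with Itgb1 on vessels, platelets and many stem cells and with Itgb4 in hemidesmosomes, was at 9.25, 8.96 and 8.93 in null callus, against 8.48, 8.50 and 8.83 in heterozygous callus. Each null value lay above each heterozygous value, with 0.09 between the nearest arrays. The means were 9.05 ± 0.18 in null and 8.60 ± 0.20 in heterozygous callus (SD, n = 3 each), a difference of 0.44 (SE 0.15) or 1.36-fold higher, with an unadjusted limma p of 0.0236 and an exact permutation p of 0.1. The second probe set of Itga6 differed by 0.41 (SE 0.16), at 8.42, 8.58 and 8.59 in null callus, against 8.04, 7.90 and 8.42 in heterozygous callus. Endothelial markers were higher in null callus for 8 of 8 genes, 0 of them with an unadjusted limma p under 0.05. For this and the marker lists below, the matching share of all genes was 49.7%. The endothelial array means ran from 0.02 to 0.27 in null and from -0.36 to 0.14 in heterozygous callus. The part of the endothelial markers in the result was not tested.

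For the other laminin receptors the groups overlapped. Itga7, the laminin receptor of skeletal muscle fibres, was at 9.94, 9.28 and 9.20 in null callus, against 9.47, 9.59 and 9.65 in heterozygous callus. Null replicate 1 alone was above the heterozygous range, the other null arrays were under it, and the difference was -0.10 (SE 0.21). Muscle markers had 0 of 10 genes higher in null callus, with a median difference of -0.09. Itga3, which binds laminin in epithelia and in vessel walls, was at 6.27, 6.14 and 5.84 in null callus, against 6.35, 6.14 and 6.10 in heterozygous callus, a difference of -0.11 (SE 0.15) with all 3 probe sets in that direction.

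Subunits that bind the tripeptide RGD in fibronectin, vitronectin and fibrinogen are Itga5, Itga8, Itgav and Itga2b, and their differences lay between 0.02 and 0.22. Itgav, the vitronectin receptor subunit that joins Itgb3 on osteoclasts and Itgb5 or Itgb1 on bone-forming and stromal cells, varied least of all members over the 6 arrays (SD 0.0768). It was at 9.47, 9.28 and 9.31 in null callus, against 9.28, 9.32 and 9.41 in heterozygous callus, a difference of 0.02 with an interval from -0.23 to 0.27. Itga5, the main fibronectin receptor subunit, was at 8.63, 7.37 and 7.80 in null callus, against 7.62, 7.26 and 8.27 in heterozygous callus. Its 2 highest values were on null replicate 1 and heterozygous replicate 3, the arrays poor in marrow genes, and the difference was 0.22 (SE 0.38). Itga8, found on smooth muscle and mesenchymal cells, was at 5.04, 5.23 and 5.78 in null callus, against 4.88, 5.49 and 5.46 in heterozygous callus, and the groups overlapped.

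Itga2b, the fibrinogen receptor subunit of platelets and megakaryocytes, was at 6.15, 8.26 and 7.07 in null callus, against 7.59, 7.69 and 5.74 in heterozygous callus. Its partner Itgb3, which also serves osteoclasts with Itgav, was at 5.24, 8.06 and 7.06 in null callus, against 7.56, 7.56 and 5.62 in heterozygous callus. Both were lowest on the 2 arrays poor in marrow genes, one in each group. The differences, 0.15 (SE 0.70) for Itga2b and -0.13 (SE 0.83) for Itgb3, were far smaller than the spread within groups, and the sign of each turned when single arrays were left out. The megakaryocyte and platelet markers stood at -0.62, 1.06 and -0.01 in null callus, against 0.55, 0.47 and -1.46 in heterozygous callus. The osteoclast markers stood at -0.79, 0.44 and 0.14 in null callus, against -0.12, 0.15 and 0.18 in heterozygous callus, with Calcr at or under 3.52 on all arrays.

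Leukocyte integrins pair their alpha subunits with Itgb2 and carry neutrophils, monocytes and lymphocytes across vessel walls. Itgb2 was at 9.40, 9.75 and 9.87 in null callus, against 9.36, 9.14 and 8.70 in heterozygous callus. All null values lay above all heterozygous values, but only 0.05 separated null replicate 1 from heterozygous replicate 1. The means were 9.67 ± 0.24 in null and 9.07 ± 0.33 in heterozygous callus (SD, n = 3 each), a difference of 0.61 (SE 0.21) or 1.52-fold higher, with an unadjusted limma p of 0.0240 and an exact permutation p of 0.1. Without null replicate 1 and heterozygous replicate 3 the difference was 0.56. With the marrow score of each array as a covariate the difference was 0.61. That score was nearly balanced, at -2.96, 1.81 and 1.09 in null callus, against 1.48, 1.52 and -2.94 in heterozygous callus. The covariate could therefore alter the difference little, and this fit is no test of the part of marrow content.

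Itgam, the alpha subunit of the complement receptor on neutrophils and macrophages, was at 5.94, 6.92 and 6.75 in null callus, against 6.45, 5.33 and 5.45 in heterozygous callus. Heterozygous replicate 1 lay above null replicate 1, so the groups overlapped although the difference of 0.80 (SE 0.38), or 1.74-fold, was the largest of the 35. Without both marrow-poor arrays the difference of Itgam was 0.95. Itgal, the alpha subunit of the lymphocyte receptor for Icam1, was at 6.92, 7.90 and 7.75 in null callus, against 7.79, 7.40 and 6.66 in heterozygous callus, a difference of 0.24 (SE 0.36) that its other probe set did not share. Itgax, the dendritic cell and macrophage subunit, was at 6.81, 5.76 and 6.55 in null callus, against 6.08, 5.56 and 6.95 in heterozygous callus. Itgal was lowest and Itgax highest on the arrays poor in marrow genes, and neither separated the groups. Itgae, which pairs with Itgb7 on lymphocytes of epithelia, lay near background, at 3.71 to 3.87 in null and 3.40 to 3.78 in heterozygous callus.

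The cells that carry these subunits can be followed by their markers. The macrophage markers were higher in null callus for 9 of 9 genes, against 49.7% of all genes. An unadjusted limma p under 0.05 was reached by 2 of the 9, against 4.49% of all genes in either direction and 2.06% in that direction. The list stood at 0.98, -0.40 and 0.30 in null callus, against -0.32, -0.72 and 0.17 in heterozygous callus. The neutrophil markers were higher for 7 of 9 genes, 0 of them with such a p. No gene of either list was silent on all arrays, and their part in the values of Itgb2 and Itgam was not tested.

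Itga4 and Itga9 bind Vcam1, fibronectin and tenascins. Itga4, used by blood cell precursors and lymphocytes to hold to the marrow stroma, was at 7.03, 7.48 and 7.65 in null callus, against 7.42, 7.10 and 6.62 in heterozygous callus, a difference of 0.34 (SE 0.25) with 2 of its 5 probe sets in that direction. Itga9 was at 6.27, 5.83 and 5.76 in null callus, against 6.16, 5.74 and 6.53 in heterozygous callus, a difference of -0.20 (SE 0.24) seen on 1 of 3 probe sets. Itga4 was lowest and Itga9 highest on the marrow-poor arrays. Itgb7, which joins Itga4 on gut-homing lymphocytes, was at 5.69, 6.14 and 6.07 in null callus, against 5.92, 5.75 and 5.68 in heterozygous callus.

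Among the remaining beta subunits, Itgb5, a vitronectin receptor subunit of stromal cells, was at 10.23, 9.94 and 9.84 in null callus, against 10.17, 10.29 and 10.25 in heterozygous callus. Null replicates 2 and 3 lay under the heterozygous range and null replicate 1 within it, and all 4 probe sets had the direction of the difference of -0.23 (SE 0.13). Itgb4, the hemidesmosome subunit of epidermis and of Schwann cells, was at 5.77, 5.98 and 5.89 in null callus, against 5.71, 5.80 and 5.45 in heterozygous callus, a difference of 0.23 (SE 0.13). The groups touched at a single pair of arrays, null replicate 1 and heterozygous replicate 2. Itgb6, an epithelial activator of latent TGF-beta, was at 7.19, 7.39 and 6.29 in null callus, against 6.67, 7.62 and 7.07 in heterozygous callus. Itgb8, another such activator in mesenchyme and glia, was at 3.95, 5.31 and 4.57 in null callus, against 4.44, 4.19 and 4.52 in heterozygous callus. The groups overlapped for both, with differences of -0.16 (SE 0.35) for Itgb6 and 0.23 (SE 0.33) for Itgb8.

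Itgb1, the shared partner of most alpha subunits, averaged 9.61 ± 0.13 in null and 9.58 ± 0.55 in heterozygous callus (SD, n = 3 each). Its values were 9.56, 9.77 and 9.52 in null callus, against 9.76, 8.97 and 10.03 in heterozygous callus, which held both the highest and the lowest array. The difference was 0.03 with an interval from -0.62 to 0.68. Epidermal markers, whose cells are rich in Itga6, Itgb4 and Itgb6, were higher in null callus for 8 of 9 genes with a median difference of 1.30, and stood at 1.26, 0.65 and -0.10 in null callus, against -1.66, 0.56 and -0.72 in heterozygous callus. Their part in these results was not tested.

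**Figure D2:**
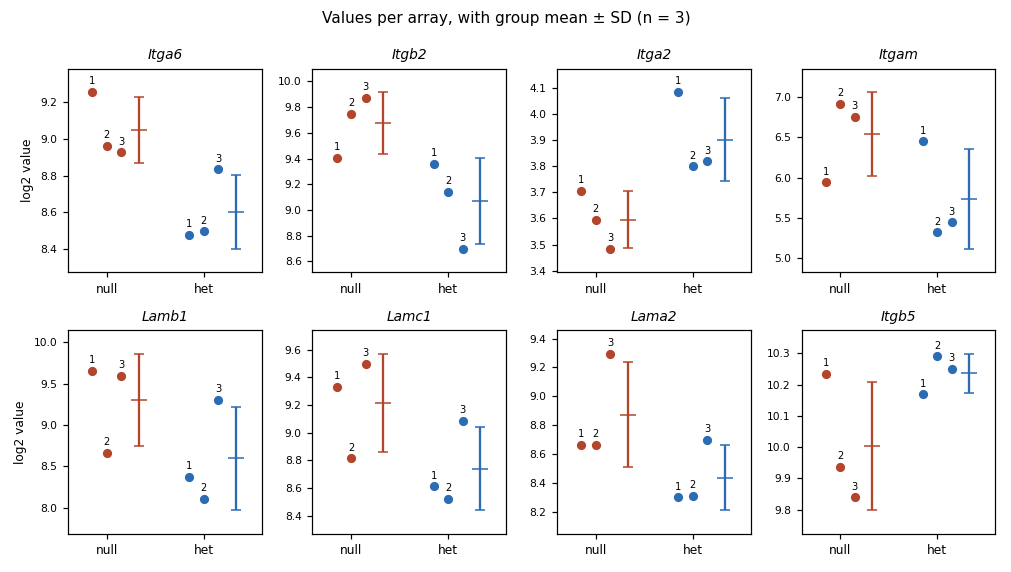
Log2 value on each array (points, numbered by replicate, null left of heterozygous) with the group mean and 1 SD (n = 3) for 8 genes. Itga6 and Itgb2 lie higher and Itga2 lower in null callus without overlap, while 1 or more arrays overlap for Itgam, Lamb1, Lamc1, Lama2 and Itgb5.

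The median SD over the 6 arrays was wider for the members than for all genes, at 0.325 against 0.197. A wide spread was not particular to the members. In the partner lists described below the median SD was 0.417 for basement membrane partners and 0.344 for integrin ligands. It was 0.263 for the adhesion complex and 0.247 for hemidesmosome partners. Among the members the spread was widest for Itgb2l, a relative of Itgb2 expressed in maturing granulocytes, with an SD of 1.83. Next came Itgb3 with 1.15 and Itga2b with 0.969. Itgb2l was at 4.43, 8.04 and 7.79 in null callus, against 7.66, 7.64 and 4.07 in heterozygous callus, and the difference of 0.30 (SE 1.31) was smaller than its error. Null replicate 1 and heterozygous replicate 3 were the lowest pair of arrays for 6 of 35 members, 17.1% against 16.5% of all genes. These were Itga2b, Itga4, Itgal, Itgb2l, Itgb3 and Itgb7, all carried by blood cells, and Itgb3 also by osteoclasts. Other leukocyte subunits did not share this, since Itgb2, Itgam and Itgae were not lowest on that pair and Itgax was highest there. The same arrays were the highest pair for 8 members, 22.9% against 16.4% of all genes, namely Itga1, Itga5, Itga7, Itga9, Itgav, Itgax, Lama3 and Lama4. The first share was close to that of all genes. No laminin was lowest on that pair of arrays.

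**Figure D3:**
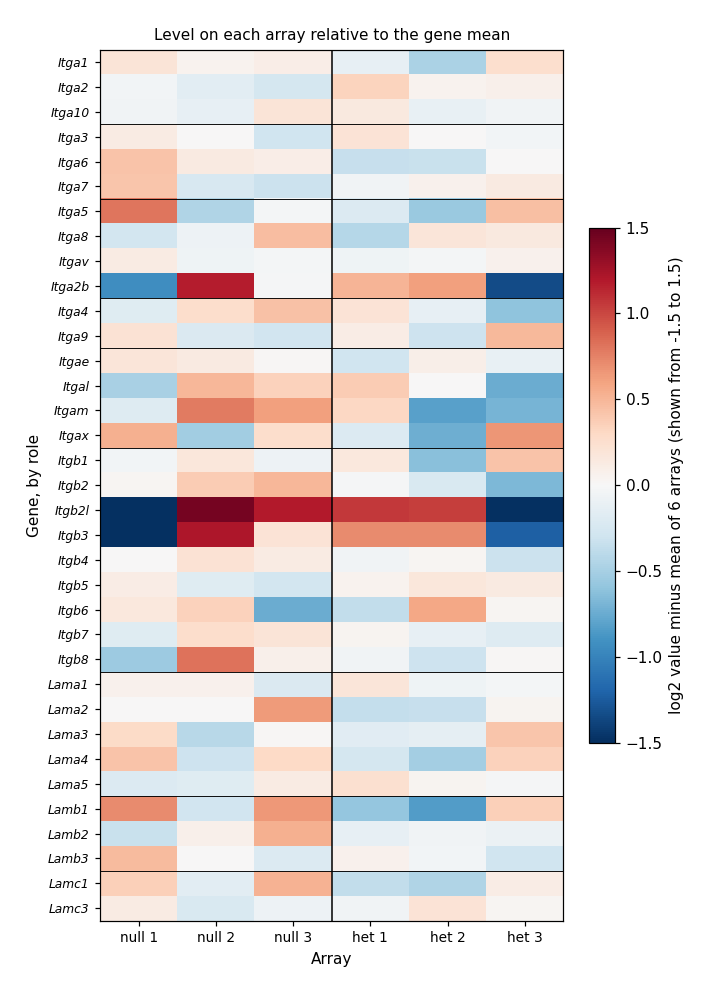
Log2 value of each member on each array minus its mean over the 6 arrays, as colour from -1.5 to 1.5, with null arrays left of the black line and heterozygous arrays right of it. Itgb2l, Itgb3 and Itga2b are low on null replicate 1 and heterozygous replicate 3, and Lamb1 and Lamc1 are high on null replicates 1 and 3.

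**Figure D4:**
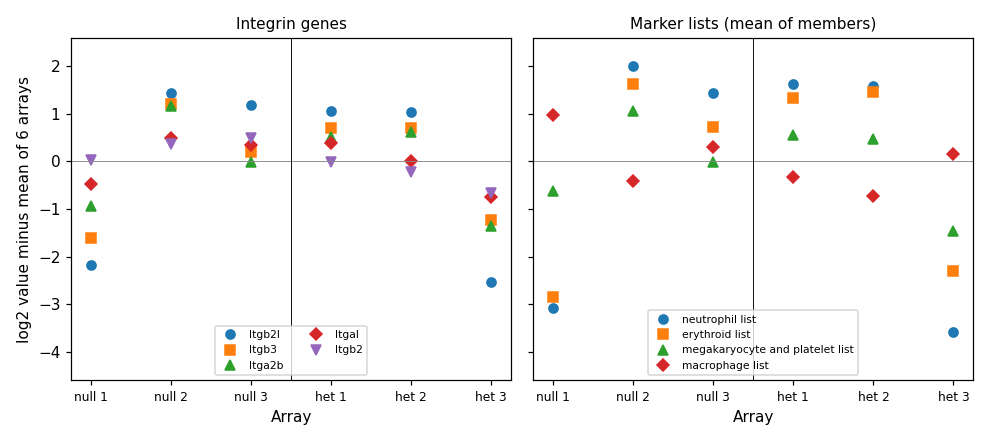
Log2 value minus the mean of 6 arrays for 5 integrin genes (left) and the mean of the same quantity over 4 marker lists (right), with null arrays left of the line in each panel. Itgb2l, Itgb3, Itga2b and Itgal are lowest where the neutrophil and erythroid lists are lowest, and Itgb2 ranges from -0.67 to 0.50.

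The promoters of 3 blood cell subunits and of Lamb1 are shown because Itga2b and Itgb2l were lowest on the arrays poor in marrow genes, while Itgam differs most among the integrins and Lamb1 among the laminins. Capitals mark 4 motifs on either strand, merged where they overlap. The PU.1 core is GAGGAA, from sites of a myeloid factor, and the GC box is GGGCGG. The GATA motif is AGATAA, and the nuclear receptor motif is AGGTCA, from sites of the vitamin D receptor and its relatives. The sequences are RefSeq's for GRCm38.p6, from 250 bases before to 50 bases after the gene's start, written along the gene's strand.
Itgam, chr7:128062390-128062689, strand plus: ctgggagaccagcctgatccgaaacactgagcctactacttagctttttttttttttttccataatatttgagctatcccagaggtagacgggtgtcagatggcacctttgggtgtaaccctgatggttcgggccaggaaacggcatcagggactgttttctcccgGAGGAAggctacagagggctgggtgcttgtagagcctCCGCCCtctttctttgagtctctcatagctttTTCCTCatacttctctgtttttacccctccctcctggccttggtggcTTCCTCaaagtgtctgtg
Itga2b, chr11:102469834-102470133, strand minus: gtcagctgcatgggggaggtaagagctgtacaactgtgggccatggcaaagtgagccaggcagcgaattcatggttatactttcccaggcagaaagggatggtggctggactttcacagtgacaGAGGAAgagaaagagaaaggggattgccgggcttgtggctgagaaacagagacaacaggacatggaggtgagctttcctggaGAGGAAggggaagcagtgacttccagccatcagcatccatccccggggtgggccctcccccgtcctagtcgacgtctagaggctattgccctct
Itgb2l, chr16:96443565-96443864, strand minus: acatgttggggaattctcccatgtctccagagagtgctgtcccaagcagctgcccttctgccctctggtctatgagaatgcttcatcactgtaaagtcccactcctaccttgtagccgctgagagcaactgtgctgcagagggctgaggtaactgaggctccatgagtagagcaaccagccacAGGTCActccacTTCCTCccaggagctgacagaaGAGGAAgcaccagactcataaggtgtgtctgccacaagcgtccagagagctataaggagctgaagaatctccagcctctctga
Lamb1, chr12:31265043-31265342, strand plus: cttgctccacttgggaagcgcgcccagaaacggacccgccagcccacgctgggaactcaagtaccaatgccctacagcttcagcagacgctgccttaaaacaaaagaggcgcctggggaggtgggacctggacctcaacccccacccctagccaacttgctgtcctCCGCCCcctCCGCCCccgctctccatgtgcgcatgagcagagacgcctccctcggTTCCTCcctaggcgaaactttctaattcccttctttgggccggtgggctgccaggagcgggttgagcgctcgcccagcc
The PU.1 core occurred 3 times in the window of Itgam, 2 times each in those of Itga2b and Itgb2l and 1 time in that of Lamb1, which also held 2 GC boxes. Itgb2l was the only one of the 23 members with a promoter sequence to hold the nuclear receptor motif, and Itgax the only one to hold the GATA motif. Of these 23 members, 12 held the PU.1 core and 11 the GC box. Itga4 and Itgb7, also lowest on the arrays poor in marrow genes, held 0 and 1 PU.1 cores, and Itgax held 0. Itgav, of bone-forming and stromal cells too, held 2, and Itga5 and Itgb1 held 1 each. The core was thus neither in all blood cell subunits nor confined to them. Among 27025 promoters of the same length, the PU.1 core was in 28.3%, the GC box in 35.9%, the nuclear receptor motif in 16% and the GATA motif in 11.4%. A match describes the letters in the window and is not shown to be a bound site.

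Laminin alpha chains carry the domains that receptors bind. Lama2, the alpha chain of muscle fibres and peripheral nerve, was at 8.66, 8.66 and 9.29 in null callus, against 8.30, 8.31 and 8.70 in heterozygous callus. Heterozygous replicate 3 lay just above 2 of the null arrays, and the difference was 0.44 (SE 0.21), or 1.35-fold, with an unadjusted limma p of 0.0828. Lama4, the alpha chain of vessels and fat cells, was at 8.86, 8.13 and 8.73 in null callus, against 8.17, 7.93 and 8.79 in heterozygous callus, a difference of 0.28 (SE 0.28) that its other probe set did not share. Lama5, the broad alpha chain of mature vessels and epithelia, was at 6.93, 6.95 and 7.26 in null callus, against 7.38, 7.18 and 7.12 in heterozygous callus. Null replicates 1 and 2 lay under all heterozygous arrays, null replicate 3 did not, and the difference was -0.18 (SE 0.14) with all 3 probe sets in that direction.

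The chains of embryonic and epidermal laminins were near background. Lama1, the first alpha chain of the embryo, did not exceed 3.52 on any array, at 2.54 to 2.83 in null and 2.70 to 2.94 in heterozygous callus, so no fold is given. Lama3 and Lamb3, chains of the anchoring laminin of epidermis, were at 3.70 to 4.41 and 3.12 to 3.80 in null callus, against 3.96 to 4.54 and 3.02 to 3.38 in heterozygous callus. All 3 heterozygous values and 2 of 3 null values of Lamb3 were at or under 3.52. Lamc3, a gamma chain of nervous tissue and skin, had 3 null and 2 heterozygous values at or under that level.

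Lamb1 and Lamc1, the beta and gamma chains shared by most laminins of vessels, muscle and nerve, gave the largest differences of the family. Lamb1 was at 9.65, 8.67 and 9.60 in null callus, against 8.37, 8.11 and 9.30 in heterozygous callus. Lamc1 was at 9.33, 8.81 and 9.50 in null callus, against 8.61, 8.52 and 9.08 in heterozygous callus. For both genes null replicate 2 was the lowest null array and lay under heterozygous replicate 3, the highest of its group, so the groups overlapped. Lamb1 averaged 9.31 ± 0.56 in null and 8.60 ± 0.63 in heterozygous callus, a difference of 0.71 (SE 0.39, 1.64-fold). Lamc1 averaged 9.21 ± 0.36 in null and 8.74 ± 0.30 in heterozygous callus, a difference of 0.47 (SE 0.23, 1.39-fold). The unadjusted limma p was 0.115 for Lamb1 and 0.0809 for Lamc1, and the exact permutation p was 0.2 for both. All 4 probe sets of Lamb1, with differences from 0.35 to 0.90, and both of Lamc1 had that direction. Lamb2, the beta chain of the muscle end plate and of mature vessels, was at 7.74, 8.15 and 8.60 in null callus, against 7.95, 8.02 and 7.98 in heterozygous callus, where the values were close together and inside the null range.

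Without both marrow-poor arrays, the difference was 0.89 for Lamb1, 0.59 for Lamc1 and 0.67 for Lama2. Then 7 of the 35 members (20%) had an unadjusted p under 0.05, as did 9.52% of all genes in place of 4.49%. Lamb1 and Lama2 were among these 7 members and Lamc1 was not. With 1 array left out at a time, Lamb1 ranged from 0.47 to 1.06, Lamc1 from 0.33 to 0.67 and Lama2 from 0.23 to 0.57, all above 0. Tendon and fibroblast markers were higher in null callus for 7 of 8 genes and stood at 0.26, -0.18 and 0.26 in null callus, against -0.08, -0.40 and 0.14 in heterozygous callus. Smooth muscle and pericyte markers were higher for 6 of 8 genes, from 0.05 to 0.16 in null and from -0.30 to 0.15 in heterozygous callus. The macrophage markers given above also had null replicate 2 lowest in its group and heterozygous replicate 3 highest in its group, as Lamb1 and Lamc1 had, and the part of any of these lists in the laminin values was not tested.

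The genes that work with integrins and laminins were taken from 4 lists, and 0 of their members passed limma's test. The adhesion complex on the inner side of integrins had 34 measured genes. Of these, 27 (79.4%, against 49.7% of all genes) had higher values in null callus. The median difference of the list was 0.17, against -0.0017 for all genes. An unadjusted limma p under 0.05 was reached by 5 (14.7%, against 4.49% of all genes). All 5 were higher in null callus, where 2.06% of all genes reached that p. Flna, the filamin that ties beta subunits to actin, was at 10.19, 10.20 and 10.26 in null callus, against 9.77, 9.73 and 9.83 in heterozygous callus, a difference of 0.44 (SE 0.09). Rap1b, the small GTPase that switches integrins on in platelets and leukocytes, was at 10.92, 11.03 and 11.02 in null callus, against 10.67, 10.44 and 10.32 in heterozygous callus, a difference of 0.51 (SE 0.12). Zyx, which encodes zyxin of mature adhesions, was at 9.78, 9.53 and 9.57 in null callus, against 9.19, 9.16 and 9.20 in heterozygous callus, a difference of 0.45 (SE 0.11). In all 3 genes, named for the lowest p of the list, the groups were apart, while limma's adjusted p was 0.999. For Flna and Zyx the gap was wider than the range within either group. Over the whole list the groups did not overlap in 4 of 34 genes, all higher in null callus. That is 11.8%, against 4.14% of all genes in that direction and 10.1% in either. The genes with an unadjusted p under 0.05 numbered 3 without heterozygous replicate 2, 3 without null replicate 1, 3 with the plain equal-variance test and 8 without heterozygous replicate 3, all higher in null callus. In the same fits 3.01%, 6.28%, 4.89% and 7.77% of all genes had such a p, in either direction. Without heterozygous replicate 2 the median difference was 0.10.

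Partners of laminin in basement membranes and other laminin receptors had 27 measured genes. Of these, 20 (74.1%, against 49.7% of all genes) had higher values in null callus, with a median difference of 0.25. An unadjusted limma p under 0.05 was reached by 1 (3.70%, against 4.49% of all genes). Ntn4, a netrin that binds laminin gamma chains, was at 7.45, 7.30 and 7.54 in null callus, against 6.99, 7.29 and 6.84 in heterozygous callus, a difference of 0.39 (SE 0.15). Col4a4, a basement membrane collagen chain, differed by 0.61 (SE 0.28) and overlapped. Sgca, the muscle sarcoglycan of the dystroglycan complex that holds Lama2, was at 10.50, 10.75 and 10.68 in null callus, against 11.01, 11.31 and 10.67 in heterozygous callus. It differed by -0.36 (SE 0.18), the opposite sign to Lama2. The count of higher values was 14 of 27 without heterozygous replicate 2 and 24 of 27 without heterozygous replicate 3. The median difference was 0.067 without heterozygous replicate 2 and 0.064 without null replicate 1. The genes with an unadjusted p under 0.05 numbered 0 without heterozygous replicate 1 or null replicate 3, 2 without null replicate 1 or heterozygous replicate 3 and 4 without null replicate 2. The shares of all genes in these fits, in that order, were 2.94%, 2.81%, 6.28%, 7.77% and 4.99%.

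Of 26 measured integrin ligands, 22 (84.6%, against 49.7% of all genes) had higher values in null callus, with a median difference of 0.28. An unadjusted limma p under 0.05 was reached by 2 (7.69%, against 4.49% of all genes). Tnn, the tenascin of periosteum and bone, was at 7.42, 6.63 and 6.69 in null callus, against 5.85, 5.61 and 5.52 in heterozygous callus, a difference of 1.25 (SE 0.23) without overlap. Ibsp, the RGD-bearing sialoprotein of mineralising bone, was at 9.46, 9.59 and 9.84 in null callus, against 10.44, 10.12 and 10.01 in heterozygous callus, a difference of -0.56 (SE 0.16) without overlap. The groups did not overlap in 2 of the 26 ligands (7.69%, against 10.1% of all genes). Osteoblast markers, which include Ibsp, were higher in null callus for 1 of 6 genes. Ltbp1, which holds latent TGF-beta in the matrix, differed by 0.34 (SE 0.16) on its main probe set, with 1 of 3 probe sets in that direction. Without heterozygous replicate 3, 9 of the 26 ligands had an unadjusted p under 0.05 (8 higher and 1 lower in null callus), as did 7.77% of all genes. Without null replicate 3 there were 4, beside 2.81% of all genes. With the mean of all probe sets of a gene the median difference was 0.13.

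Of 4 measured hemidesmosome partners, 2 had higher values in null callus, with a median difference of -0.02, and 1 (25%, against 4.49% of all genes) reached an unadjusted p under 0.05. The median ranged from -0.14 without heterozygous replicate 3 to 0.12 without heterozygous replicate 2. Cd151, the tetraspanin that joins laminin-binding integrins, was at 10.08, 10.27 and 10.18 in null callus, against 10.33, 10.51 and 10.46 in heterozygous callus. All 6 of its probe sets had the direction of the difference of -0.26 (SE 0.11). Of the laminin-binding alpha subunits, Itga6 had the opposite sign (0.44), while Itga3 (-0.11) and Itga7 (-0.10) had the same sign. Plec, the plectin that links Itgb4 to keratin, differed by -0.17 (SE 0.14), and Col17a1, the transmembrane collagen of epidermal hemidesmosomes, by 0.69 (SE 0.44).

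**Figure D5:**
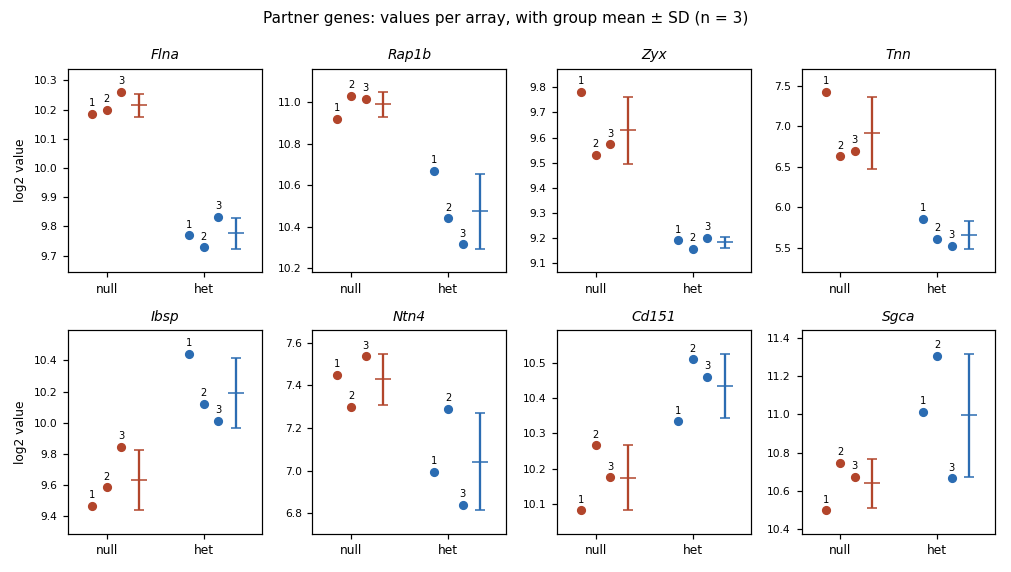
Log2 value on each array (points, numbered by replicate, null left of heterozygous) with the group mean and 1 SD (n = 3) for 8 partner genes. Flna, Rap1b, Zyx, Tnn and Ntn4 lie higher and Ibsp and Cd151 lower in null callus without overlap, and Sgca overlaps at heterozygous replicate 3.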

How the data were processed

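Callus RNA on 3 null and 3 heterozygous arrays was analysed. The deposited table holds 1 value per probe set and array. Its range was taken to mean log2 values normalised by the authors, and the sources used here do not name the software. Array columns have nearly equal distributions, so a shift of all genes cannot be seen in them, and low values lie near a floor that compresses differences.

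Of 45101 probe sets, 64 controls were left out and 45037 tested with limma 3.58.1 in R 4.3.3 (lmFit, eBayes, two-sided, Benjamini-Hochberg over all probe sets). Intervals use its moderated error. Symbols came from the platform annotation, where 34945 probe sets have 1 symbol, 932 several and 9160 none, and all members matched RefSeq symbols. Permutation tests, two-sided, enumerated all splits of the arrays.

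Genes were named by rule, at most 3 in each role and in each partner list, by their limma p before adjustment. The other members were named after their values were seen. Members and lists were chosen with earlier results of these data known, and the lists' counts under the alternatives were added after seeing the data. The script was tested on simulated data. Alternatives were other normalisations, centring, array weights, a trended robust prior, a filter on level, the mean of all probe sets of a gene, a plain equal-variance test, marrow score or Xist level as covariate, and arrays left out. Pseudocounts do not apply to log2 values.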

Additional observations from a re-analysis of the deposited data

How the results depend on the processing

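The 35 members were refitted under 17 alternatives, and none passed an adjusted p of 0.05 in any of them (lowest 0.462, with array weights). The direction held under the alternatives that gave a value for 16 members, among them Itga6, Itgb2, Itga2, Itgam, Lamb1, Lamc1 and Lama2. It also held for the 12 partner genes named by rule, whose alternatives were added after seeing the data. The trended robust prior, the plain test and the filter on level cannot alter a difference. Nor can Xist level, which was high on 1 array of each group, and the nearly balanced marrow score could alter it little. Directions kept in those fits therefore add no support. Members at an unadjusted p under 0.05 numbered 7 with array weights, 7 with the marrow score as a covariate, 7 without both null replicate 1 and heterozygous replicate 3, 1 with the plain equal-variance test, and 1 to 6 with 1 array left out (1 without null replicate 3, 2 without heterozygous replicate 1 or 2, 5 without heterozygous replicate 3 and 6 without null replicate 1). The share of all genes at that p moved as well, to 12.1% with array weights, 9.97% with the marrow score, 9.52% without both arrays and 4.89% with the plain test, against 4.49%. The marrow score as a covariate left 1 probe set passing, which is no member, and leaving out 1 array left 0. The median difference of the integrins was 0.066 with the mean of all probe sets of a gene and 0.053 to 0.19 with 1 array left out, lowest without null replicate 2, and that of the laminins was 0.063 to 0.21, lowest without null replicate 1. The sign turned with array weights for Itga2b (-0.073), Itgb1 (-0.041), Lama3 (0.011) and Lamb3 (-0.043). It turned for Itga10 with centring (-0.0047), cyclic loess (-0.0011) and quantile normalisation (-0.018). The mean of all probe sets turned Itga9 (0.018) and Itgb1 (-0.0082), and leaving out both marrow-poor arrays turned Itgb3 (0.0012) and Lamb3 (-0.11). With 1 array left out, 18 members turned sign at least once. Over these fits and the one without both marrow-poor arrays, their differences ranged as follows: Itga10 -0.083 to 0.090, Itga3 -0.25 to 0.010, Itga7 -0.33 to 0.038, Itga5 -0.13 to 0.50, Itga8 -0.14 to 0.32, Itgav -0.038 to 0.057, Itga2b -0.48 to 0.66, Itgal -0.070 to 0.54, Itgax -0.14 to 0.56. For the rest they were Itgb1 -0.28 to 0.28, Itgb2l -0.90 to 1.46, Itgb3 -0.77 to 0.65, Itgb6 -0.39 to 0.17, Itgb8 -0.12 to 0.63, Lama1 -0.13 to 0.041, Lama3 -0.24 to 0.12, Lamb2 -0.033 to 0.40, Lamb3 -0.11 to 0.33. The cause was not tested. The filter at the median level left 28 members and gave no value for Itga2, among others. No paired analysis was possible because the labels give no numbers that pair the arrays. The number of arrays limits precision, and the median SE of a member's difference was 0.21.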
